A study of Caenorhabditis elegans with 24 samples.

Results

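A set of 8 genes known from earlier work as raised by the FOXO transcription factor DAF-16, and so as higher in long-lived daf-2 worms, was followed across adult life in Caenorhabditis elegans. They are lea-1, dod-3, dod-6, dao-3, scl-1, nnt-1, sdz-24 and hil-1. They were chosen by name, as genes of class I (the genes that DAF-16 activates) outside the superoxide dismutase and metal-handling genes. The choice was made with earlier results of these data known. All 8 were found among the 46904 gene identifiers of the deposited tables. RNA of whole worms was measured in the wild-type strain N2 and in CF1041, which carries the allele daf-2(e1370), on days 1, 4, 7 and 11 of adulthood. Each of these 8 groups held 3 libraries. Worms of both strains were synchronised by bleaching, fed OP50 bacteria and given 50 µM FUDR, a drug that keeps progeny from hatching, from the L4 larval stage. The e1370 allele lowers the function of the insulin/IGF-1 receptor without removing its transcript, and the whole body was sampled, so no tissue is resolved. Whether a group's libraries stem from separate cultures is not stated in the labels, so the p-values reflect only how far these samples spread, and that spread may be technical.

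As background, the receptor DAF-2 signals through the kinases AGE-1, PDK-1, AKT-1 and AKT-2, and active AKT keeps DAF-16 out of the nucleus. When signalling is low, DAF-16 enters the nucleus and raises class I genes, which serve stress resistance, metabolism and defence, while class II genes fall. Among the members, lea-1 encodes a late embryogenesis abundant protein of the kind that protects drying cells. The gene dao-3 encodes a methylenetetrahydrofolate dehydrogenase-like enzyme of folate metabolism, and nnt-1 encodes the mitochondrial transhydrogenase that makes NADPH. The gene hil-1 encodes a linker histone, and scl-1 a secreted SCP-like protein that earlier work found necessary for the full long life of daf-2 worms. The dod genes were named as downstream of daf-16, dao-3 for its expression in dauer larvae and ageing adults, and sdz-24 as a SKN-1-dependent zygotic transcript.

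The libraries held between 20660999 and 32655703 expected counts each, with 18073 to 20652 genes above 0. Ribosomal RNA made up 3.9% to 14.6% of the counts, and in the 8 libraries numbered 3 its share ran from 7.92% to 14.6%. It ran from 5.59% to 8.83% in libraries numbered 1 and from 3.9% to 9.62% in libraries numbered 2. Levels are given as CPM, which scales the expected counts of each library to a common total. Of 16698 genes with enough counts to be tested, 7 were members, and scl-1 was not. Transcripts of daf-2 did not pass the test between the strains at any age (log2 fold changes -0.04 to 0.47, adjusted p = 0.642 to 1), nor did those of daf-16 (-0.09 to 0.88, adjusted p = 0.37 to 1). Since the allele acts on receptor function, transcript levels are no check of the labels. Defining markers of intestine, body wall muscle, neurons, hypodermis, pharynx and germline were above 0 in every group. In such bulk samples, fewer cells of a type and less RNA per cell cannot be told apart.

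The first question was which of these genes differed between daf-2(e1370) and N2. Averaged over the 4 ages, all 7 tested members were higher in daf-2, from 1.52-fold for dao-3 to 6.63-fold for sdz-24, with a median log2 fold change of 1.83 against 0.01 over all genes tested. In that average 6.91% of all genes were called higher. The members were chosen as genes higher in daf-2, with earlier results of these data known. Their counts beside the shares of all genes therefore describe the set and are no independent test. A gene was called at a false discovery rate of 0.05 by the quasi-likelihood test of edgeR, with Benjamini-Hochberg adjustment over all genes tested. The model held no term for the replicate number, which entered only where a replicate block is named. At day 1, 5 of the 7 were called higher (1.14% of all genes), at day 4, 6 of 7 (1.56%), at day 7, 4 of 7 (1.1%) and at day 11, 4 of 7 (1.71%). No member was called lower at these ages (0.611%, 0.371%, 0.994% and 2.24% of all genes) or on average (4.2%), and sdz-24 and hil-1 were called at each of the 4 ages. The 3 daf-2 libraries all lay above the 3 N2 libraries for 6, 7, 7 and 6 of the 7 members at days 1, 4, 7 and 11, where 9.53%, 15.7%, 13.2% and 22.2% of all genes had libraries that did not overlap in either direction. The counts behind these backgrounds rest in part on single libraries. The genes called between the strains in either direction went from 293 at day 1 to 189, 190.0 and 168 without N2 library 1, N2 library 2 and daf-2 library 2, and from 323 at day 4 to 181 and 173 without N2 library 1 and daf-2 library 2. They went from 350.0 at day 7 to 209, 224, 229 and 181 without N2 library 1, N2 library 2, daf-2 library 1 and daf-2 library 2, and from 659 at day 11 to 381 without daf-2 library 2.

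**Figure D1:**
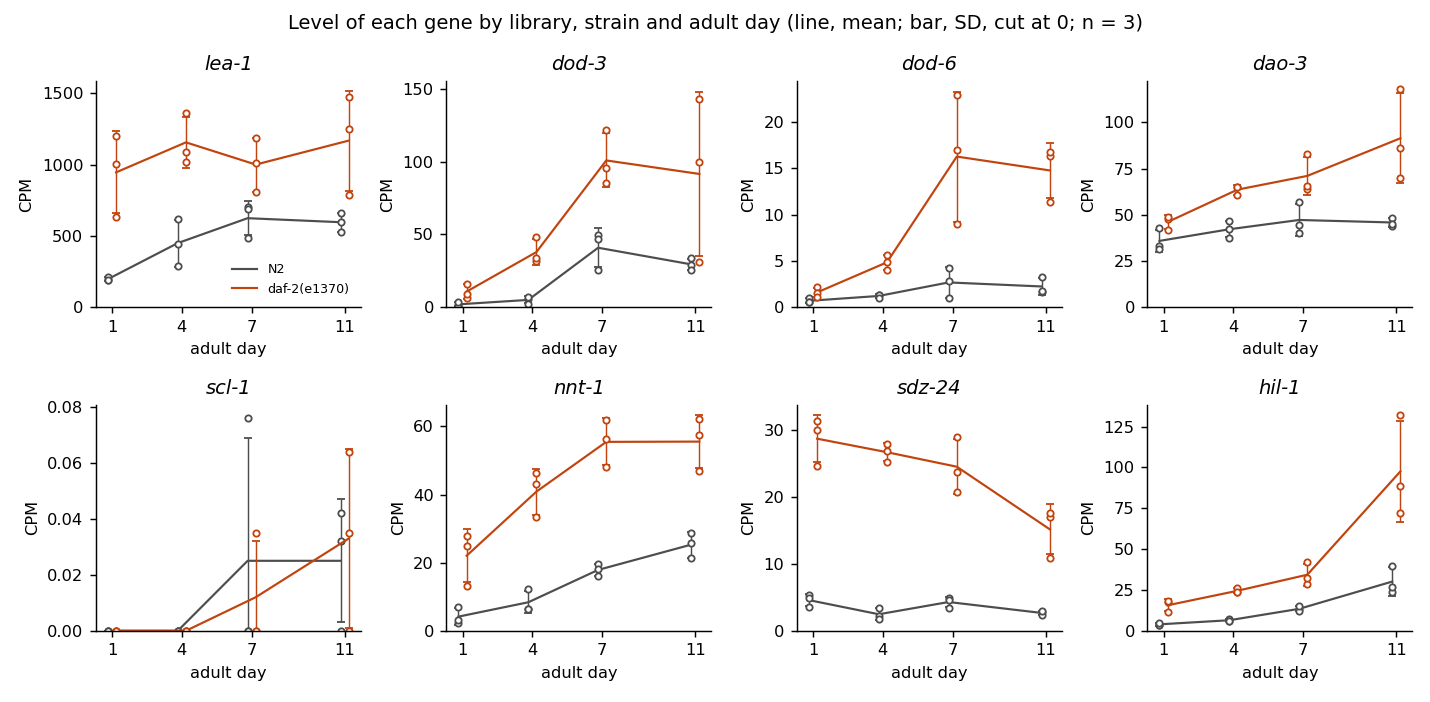
Level in CPM (vertical axis, linear and different in each panel) against adult day for the 8 genes. Points are libraries, lines join group means and bars are SD (n = 3), in grey for N2 and red for daf-2(e1370); for sdz-24 the 12 daf-2 libraries (10.8 to 31.3 CPM) lie above the 12 N2 libraries (1.72 to 5.28 CPM), and the scl-1 panel shows libraries of 0 to 2 counts.

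The LEA protein gene lea-1 (WBGene00002263, chromosome V, 10011923 to 10028168 on the plus strand of WBcel235) was the most abundant member per length of transcript, at a mean of 158.8 CPM per kb of exon over the 24 libraries. At day 1 it stood at 189.8, 211 and 188 CPM in N2 libraries 1, 2 and 3 and at 1002, 1201 and 634 CPM in daf-2. At day 4 it stood at 442, 618 and 289 CPM in N2 and at 1361, 1086 and 1022 CPM in daf-2. The N2 libraries were higher than at day 1 and still below those of daf-2. At day 7 the values were 701, 687 and 484 CPM in N2 and 1185, 1011 and 806 CPM in daf-2. At day 11 they were 661, 600.1 and 526 CPM in N2 and 1248, 1473 and 785 CPM in daf-2. The strains did not overlap at any age, and library 3 was the lowest of its group in all 8 groups. In daf-2 the gene was 4.57-fold higher at day 1 (log2 fold change 2.19 ± 0.32, where ± gives the SE and each group has n = 3, adjusted p = 0.000266) and 2.51-fold higher at day 4 (1.33 ± 0.31, adjusted p = 0.0218). The differences at day 7 (0.70 ± 0.30, adjusted p = 0.42) and day 11 (0.92 ± 0.30, adjusted p = 0.105) did not pass, but did with the replicate number as a block (adjusted p = 0.0129 and 0.00137). Leaving out N2 day 4 library 1 ended the day 4 call (adjusted p = 0.109), as did leaving out N2 library 3 (0.146), or daf-2 day 4 library 1 (0.112) or 2 (0.0653). In N2 lea-1 rose 2.58-fold from day 1 to day 11 (log2 fold change 1.37 ± 0.31, adjusted p = 0.00136), whereas in daf-2 the change was 0.10 ± 0.30 (adjusted p = 0.823).

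A gene on the opposite strand, acl-2, overlaps lea-1 and reached at most 84 CPM, and C15H9.9 overlaps nnt-1 and reached 75.9 CPM. The kit keeps strand, but the strand setting of the counting is not given in the sources used here. Reads of these pairs may therefore not be told apart, and the values of lea-1 and nnt-1 are uncertain to that extent. Overlap was read from whole gene spans, and whether exons are shared was not checked. The lowest lea-1 library held 188 CPM, above the highest value of acl-2. For nnt-1 the highest library held 62.1 CPM, below the highest value of C15H9.9, so beside its level the uncertainty is larger.

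Among the enzymes, nnt-1 (WBGene00003778, chromosome X, 6122311 to 6127554, plus strand) was low at the start of adulthood in N2. At day 1 it stood at 2.29, 3.09 and 7.1 CPM in N2 and 13.3, 25 and 27.8 CPM in daf-2. At day 4 it stood at 6.54, 6.45 and 12.14 CPM and 33.3, 43 and 46.3 CPM. The lowest daf-2 library at each of these ages was above the highest of N2. At day 7 it stood at 19.5, 16.06 and 18.1 CPM in N2 and 56.4, 61.9 and 48.1 CPM in daf-2, and at day 11 at 28.8, 21.3 and 25.8 CPM and 57.6, 62.1 and 47 CPM. Both strains therefore ended above where they began, and the day 11 libraries of N2 had reached the range that daf-2 held at day 1. The gene was 4.99-fold higher in daf-2 at day 1 (log2 fold change 2.32 ± 0.33, adjusted p = 0.000264), 4.76-fold at day 4 (2.25 ± 0.33, adjusted p = 0.000291) and 3.16-fold at day 7 (1.66 ± 0.32, adjusted p = 0.00475). At day 11 the difference was 1.08 ± 0.31 (adjusted p = 0.0557, or 0.0204 with the replicate block). The day 1 call ended in a fit of the 2 day 1 groups alone (adjusted p = 0.072), and without N2 day 1 library 3 the log2 fold change was 2.92 (adjusted p = 2.19e-05). With age nnt-1 rose 5.18-fold in N2 from day 1 to day 11 (log2 fold change 2.37 ± 0.33, adjusted p = 1.1e-05) and 2.21-fold in daf-2 (1.141 ± 0.31, adjusted p = 0.00675). Without N2 day 1 library 3 the N2 log2 fold change was 2.97 (adjusted p = 1.15e-06).

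The folate enzyme gene dao-3 (WBGene00000929, chromosome X, 8084210 to 8086550, minus strand) had the narrowest range of the 7, with 3.73-fold between its lowest and highest library. In N2 it stood at 33.2, 31.6 and 42.6 CPM at day 1 and 48.3, 44 and 45.1 CPM at day 11, with the other ages between 37.7 and 56.8 CPM. In daf-2 it stood at 41.5, 47.8 and 48.8 CPM at day 1, 60.5, 65.2 and 65 CPM at day 4 and 64.2, 83 and 65.8 CPM at day 7. At day 11 the daf-2 libraries were at 86.3, 118 and 69.9 CPM. The strains overlapped at day 1 and were apart at the 3 later ages. The day 11 difference passed (1.93-fold, log2 fold change 0.94 ± 0.18, adjusted p = 0.00238); those at days 1, 4 and 7 were 0.28 ± 0.18 (adjusted p = 0.914), 0.56 ± 0.18 (adjusted p = 0.145) and 0.63 ± 0.18 (adjusted p = 0.0796). Day 7 passed with the replicate block (adjusted p = 0.0273) and without daf-2 day 7 library 3 (adjusted p = 0.0372). In daf-2 dao-3 rose 1.73-fold from day 1 to day 11 (log2 fold change 0.79 ± 0.18, adjusted p = 0.00157). In N2 the change was 0.13 ± 0.18 (adjusted p = 0.595).

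The linker histone gene hil-1 (WBGene00001852, chromosome V, 14949777 to 14952799, plus strand) was higher at each later age in both strains. In N2 it stood at 3.52, 3.34 and 4.99 CPM at day 1, 7.16, 6.02 and 6.19 CPM at day 4 and 13.3, 12 and 14.9 CPM at day 7. At day 11 the N2 libraries were at 23.5, 39.9 and 27 CPM. The 4 ages of N2 did not overlap each other. In daf-2 hil-1 stood at 11.4, 17.5 and 17.9 CPM at day 1, 23.5, 26.2 and 23.8 CPM at day 4 and 28.7, 42 and 32.3 CPM at day 7. At day 11 the daf-2 libraries were at 72.1, 132 and 88.7 CPM. Each age of daf-2 was also clear of the next, and at every age the daf-2 libraries were above those of N2. Between the strains hil-1 was 3.72-fold higher at day 1 (log2 fold change 1.90 ± 0.26, adjusted p = 0.000173), 3.7-fold at day 4 (1.89 ± 0.26, adjusted p = 0.000146), 2.61-fold at day 7 (1.39 ± 0.25, adjusted p = 0.00278) and 3.11-fold at day 11 (1.64 ± 0.25, adjusted p = 0.000308). From day 1 to day 11 it rose 6.54-fold in N2 (log2 fold change 2.71 ± 0.27, adjusted p = 1.61e-07) and 5.46-fold in daf-2 (2.45 ± 0.26, adjusted p = 5.08e-07).

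The gene dod-3 (WBGene00016052, chromosome V, 2730622 to 2731098, minus strand) had the widest range of the 7, 166-fold from its lowest to its highest library. In N2 it stood at 0.862, 1.51 and 3.31 CPM at day 1 and 5.62, 6.98 and 2.22 CPM at day 4. It then stood at 49.8, 47.1 and 25.4 CPM at day 7 and 33.5, 29.2 and 25.4 CPM at day 11. In N2 the 6 later libraries were thus all above the 6 earlier ones. In daf-2 it stood at 6.57, 9.33 and 16.05 CPM at day 1 and 31.7, 33.8 and 48.1 CPM at day 4. It then stood at 121, 85.6 and 95.3 CPM at day 7 and 143, 31.3 and 99.9 CPM at day 11. Library 2 of daf-2 at day 11 lay within the range of N2 at that age, and at the other ages the strains did not overlap. In daf-2 dod-3 was 5.24-fold higher at day 1 (log2 fold change 2.39 ± 0.52, adjusted p = 0.0161) and 7.32-fold higher at day 4 (2.87 ± 0.51, adjusted p = 0.00238). Leaving out N2 day 1 library 1 ended the day 1 call (adjusted p = 0.11), as did leaving out N2 library 2 (0.0927) or daf-2 day 1 library 3 (0.0899) or fitting the 2 day 1 groups alone (0.104). The differences at day 7 (1.297 ± 0.47, adjusted p = 0.254) and day 11 (1.58 ± 0.48, adjusted p = 0.07) did not pass, though day 11 did with the replicate block (adjusted p = 0.0398) and without daf-2 day 11 library 2 (0.0164). With age dod-3 rose 13.1-fold in N2 from day 1 to day 11 (log2 fold change 3.72 ± 0.54, adjusted p = 1.69e-05) and 7.51-fold in daf-2 (2.91 ± 0.50, adjusted p = 0.000137). N2 day 1 library 3 was the highest of its group, and without it the log2 fold change was 3.04 between the strains at day 1 (adjusted p = 0.00903) and 4.36 from day 1 to day 11 in N2 (adjusted p = 2.68e-05).

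The gene dod-6 (WBGene00011869, chromosome III, 10197716 to 10198352, plus strand) rested on few reads in young worms, with 14 to 27 counts in the N2 libraries of day 1. In N2 it stood at 1.01, 0.503 and 0.521 CPM at day 1, 1.36, 1.3 and 0.95 CPM at day 4, 2.83, 4.21 and 0.954 CPM at day 7 and 1.67, 3.3 and 1.72 CPM at day 11. In daf-2 it stood at 2.15, 1.5 and 1.11 CPM at day 1 and 5.61, 4.05 and 4.85 CPM at day 4. It then stood at 16.9, 22.9 and 8.94 CPM at day 7 and 16.3, 16.7 and 11.3 CPM at day 11. The strains did not overlap at any age, and the 6 daf-2 libraries of days 7 and 11 were above all N2 libraries. The strain difference did not pass at day 1 (1.16 ± 0.51, adjusted p = 0.535) and passed at day 4 (3.89-fold, log2 fold change 1.96 ± 0.48, adjusted p = 0.0336), day 7 (6.2-fold, 2.63 ± 0.47, adjusted p = 0.00245) and day 11 (6.38-fold, 2.67 ± 0.48, adjusted p = 0.00135). The day 4 call ended without any single library of its 6 (adjusted p = 0.0615 to 0.167), and the day 7 call in a fit of the 2 day 7 groups alone (adjusted p = 0.0823). From day 1 to day 11 dod-6 rose 8.04-fold in daf-2 (log2 fold change 3.01 ± 0.48, adjusted p = 6.53e-05) and 2.81-fold in N2 (1.49 ± 0.51, adjusted p = 0.0235). The N2 call ended without day 1 library 2 (adjusted p = 0.0859) or 3 (0.0803) or day 11 library 2 (0.134).

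The gene sdz-24 (WBGene00019495, chromosome II, 658669 to 659846, plus strand) separated the strains in every library. At day 1 it stood at 5.28, 3.56 and 4.9 CPM in N2 and 24.7, 30.1 and 31.3 CPM in daf-2. At day 4 it stood at 3.42, 2.26 and 1.72 CPM and 27.9, 25.2 and 26.9 CPM. It was thus high in daf-2 from the first day sampled. At day 7 it stood at 4.85, 3.38 and 4.66 CPM in N2 and 23.7, 20.8 and 29 CPM in daf-2, and at day 11 at 2.76, 2.33 and 2.9 CPM and 17, 10.8 and 17.5 CPM. All 12 daf-2 libraries were above all 12 N2 libraries, whatever the age. The daf-2 level was 5.91-fold higher at day 1 (log2 fold change 2.56 ± 0.23, adjusted p = 8.6e-07), 10.5-fold at day 4 (3.39 ± 0.25, adjusted p = 4.72e-08), 5.71-fold at day 7 (2.51 ± 0.23, adjusted p = 7.54e-07) and 5.46-fold at day 11 (2.45 ± 0.24, adjusted p = 1.13e-06). At day 4 its p-value ranked 2 among the 16698 genes. From day 1 to day 11 sdz-24 fell 2.01-fold in N2 (log2 fold change -1.01 ± 0.23, adjusted p = 0.00177) and 2.18-fold in daf-2 (-1.12 ± 0.22, adjusted p = 0.000489). The N2 course was not a steady fall, with group means of 4.58, 2.47, 4.30 and 2.66 CPM at days 1, 4, 7 and 11. In N2 day 7 against day 1 did not pass (-0.28 ± 0.23, adjusted p = 0.398). Since its name comes from embryos, 8 early zygotic genes were read beside it. Their summed level lay between 4.35 and 10.2 CPM in N2 libraries and between 4.56 and 13.9 CPM in daf-2 libraries. Of the 8, 1 was at 0 in each day 1 group, and none of the 6 that could be tested was called between the strains at any age. At such low levels a difference can be missed, and the part of embryos in the sdz-24 level was not tested.

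The secreted protein gene scl-1 (WBGene00004742, chromosome IV, 13056326 to 13057351, plus strand) was near absent. It had 8 counts in the whole series, 4 in N2 and 4 in daf-2, spread over 6 libraries with at most 2 in any library. All 12 libraries of days 1 and 4 were at 0, and no library reached the floor of 3 counts, which stands for 0.0919 to 0.145 CPM depending on the library and covers counting error only. No strain or age difference in scl-1 was detectable at this depth. Of the 23 other scl family genes, 11 could be tested, and 1, 1 and 3 of them were called higher in daf-2 at days 4, 7 and 11 and none at day 1. At days 4, 7 and 11, 1.56%, 1.1% and 1.71% of all genes were called higher. Averaged over the ages 3 of the 11 scl genes were higher and 3 lower, beside 6.91% and 4.2% of all genes. Among the lower was scl-2 (log2 fold change -1.03 ± 0.27, adjusted p = 0.0135). Of this family scl-2 rose with a log2 fold change of 4.97 ± 0.62 (adjusted p = 2.97e-06) in N2 from day 1 to day 11 and 5.46 ± 0.65 (adjusted p = 1.79e-06) in daf-2.

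**Figure D2:**
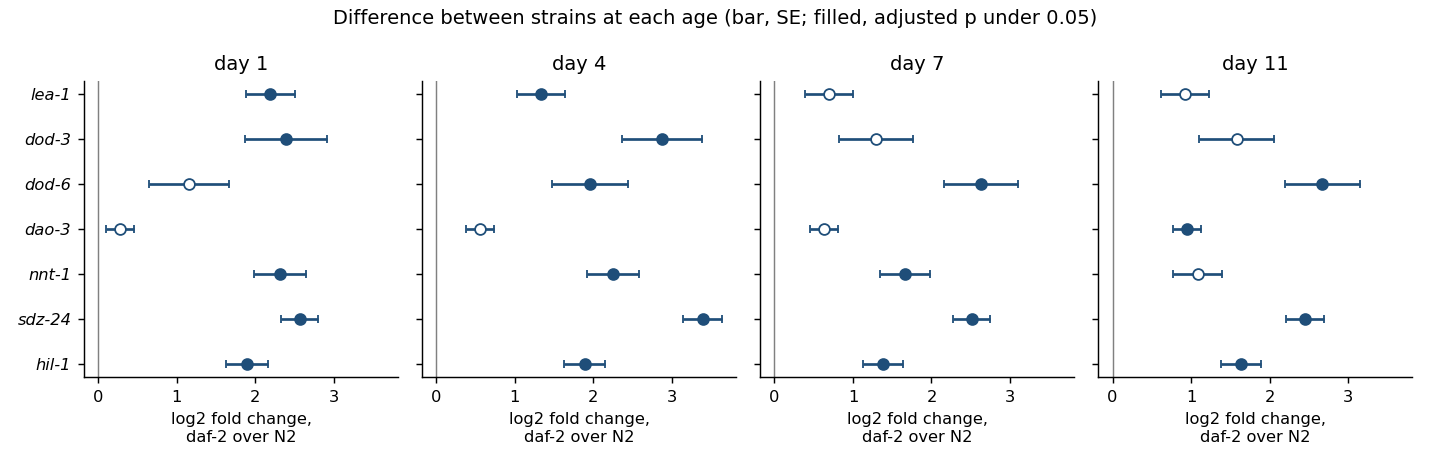
Log2 fold change of daf-2(e1370) over N2 (horizontal axis) for the 7 tested genes at each adult day, with bars of 1 SE (n = 3 and 3 libraries). Filled points passed at an adjusted p under 0.05; every point lies above 0, sdz-24 is highest at day 4 (3.39), and lea-1, dod-3 and nnt-1 are filled at days 1 and 4 and open at day 11.

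The second question was how the members changed with age within each strain. In N2, day 11 against day 1, hil-1, dod-3, nnt-1, lea-1 and dod-6 rose, sdz-24 fell and dao-3 did not pass, so that 5 of 7 were higher and 1 lower (22.5% and 19.2% of all genes). In daf-2, hil-1, dod-3, dod-6, nnt-1 and dao-3 rose, sdz-24 fell and lea-1 did not pass, again 5 higher and 1 lower (22.3% and 18% of all genes). Both strains share this list except for lea-1 and dao-3. No member call of these 2 comparisons changed with the scaling of the libraries. Changes of all genes do shift with it: the median log2 fold change of day 11 over day 1 was 0.10 in N2 and 0.09 in daf-2, but 0.28 and 0.29 under upper-quartile scaling and 0.33 and 0.29 when libraries were scaled by size. The share of called genes that were higher was 53.9%, 65.4% and 69.5% in N2 under these 3 scalings in turn, and 55.3%, 68.9% and 69.4% in daf-2.

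**Figure D3:**
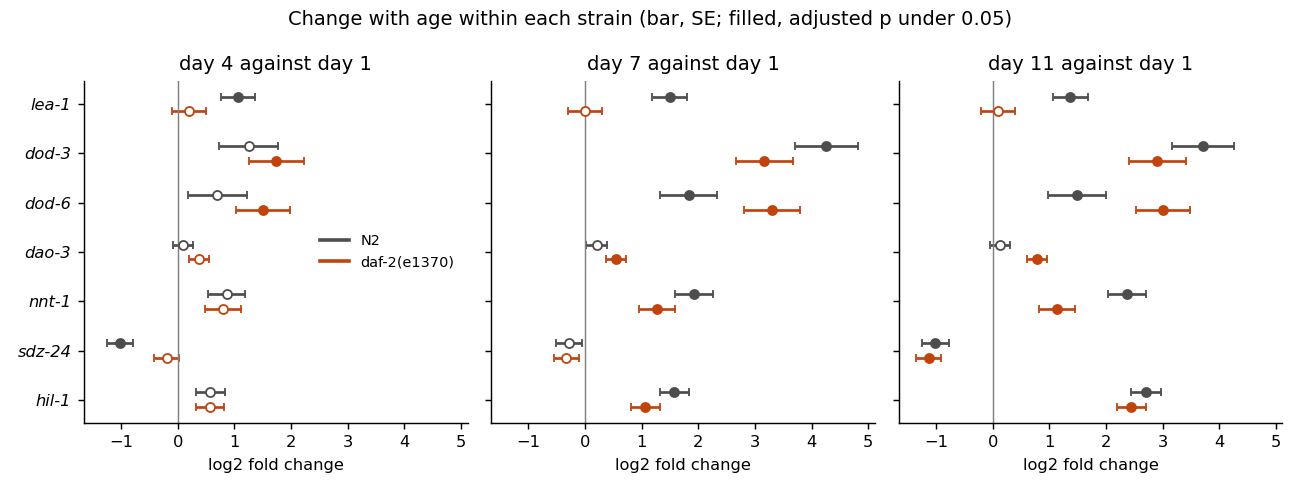
Log2 fold change of each later age against day 1 (horizontal axis) for the 7 tested genes, in grey for N2 and red for daf-2(e1370), with bars of 1 SE (n = 3 and 3 libraries). Filled points passed at an adjusted p under 0.05; in the day 11 panel lea-1 is filled in N2 (1.37) and open in daf-2 (0.10), dao-3 is open in N2 (0.13) and filled in daf-2 (0.79), and sdz-24 lies below 0 in both.

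By day 4, 2 of the 7 members were called in each strain, and 5 of 7 in each had an unadjusted p under 0.05. The share of all genes under that mark was not counted. The highest of these p-values ranked 3459 (hil-1, N2) and 3783 (dao-3, daf-2) among the 16698 genes, so many other genes reached it too. In N2 lea-1 was higher than at day 1 (log2 fold change 1.06 ± 0.31, adjusted p = 0.0314) and sdz-24 lower (-1.02 ± 0.23, adjusted p = 0.00834), 1 of 7 in each direction (3.01% and 6.08% of all genes). Leaving out N2 day 1 library 1 ended the lea-1 call (adjusted p = 0.118), as did leaving out 2 (0.0504) or 3 (0.0839) or day 4 library 1 (0.0756) or 2 (0.206). The sdz-24 call ended without day 1 library 1 (adjusted p = 0.0529) or day 4 library 3 (0.0506), in a fit of the 2 groups alone (0.123) and without the libraries numbered 3 (0.075). Other members passed in N2 under such changes: nnt-1 without day 1 library 3 (log2 fold change 1.47, adjusted p = 0.00596) and without all libraries numbered 3 (1.13, adjusted p = 0.0159), and dod-3 without all libraries numbered 3 (2.27, adjusted p = 0.0207, against 1.25 ± 0.52 and adjusted p = 0.142 with them). With library size alone as the scaling, 52.9% of the genes called in N2 were higher in place of 33.1%, and in daf-2 57.2% in place of 45.6%. In daf-2 dod-3 (1.74 ± 0.48, adjusted p = 0.0264) and dod-6 (1.51 ± 0.47, adjusted p = 0.0478) were higher, 2 of 7 (4.22% of all genes) with 0 lower (5.02%), and nnt-1 passed with the replicate block (adjusted p = 0.0466). The dod-3 call ended without daf-2 day 1 library 1 (adjusted p = 0.118) or 2 (0.0887) or day 4 library 2 (0.056) or 3 (0.0811), and the dod-6 call without any single library of its 6 (0.056 to 0.142).

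By day 7 more members stood above their day 1 level. In N2 lea-1, dod-3, dod-6, nnt-1 and hil-1 were higher, 5 of 7 (12.8% of all genes) with 0 lower (13.1%), led by dod-3 at 19.1-fold (log2 fold change 4.26 ± 0.55, adjusted p = 1.12e-05). In daf-2 dod-3, dod-6, dao-3, nnt-1 and hil-1 were higher, 5 of 7 (15.1%) with 0 lower (12.7%), led by dod-6 at 9.87-fold (log2 fold change 3.30 ± 0.49, adjusted p = 5.12e-05). Scaling by library size moved the share of genes called in N2 that were higher from 49.5% to 68.2%. The dod-6 call in N2 ended without N2 day 7 library 2 (adjusted p = 0.0866). That of dao-3 in daf-2 (adjusted p = 0.0262) ended without daf-2 day 1 library 1 (0.0885) or 2 (0.0523) or day 7 library 2 (0.19). Without N2 day 1 library 3 the N2 log2 fold change of dod-3 was 4.91 (adjusted p = 2.14e-05) and that of nnt-1 2.52 (adjusted p = 1.42e-05, against 1.92 ± 0.33 with it).

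The steps between neighbouring ages placed these changes. Between days 4 and 7 in N2, dod-3 rose 8.02-fold (log2 fold change 3.003 ± 0.51, adjusted p = 0.00278) and hil-1 2-fold (1.00 ± 0.26, adjusted p = 0.0416), 2 of 7 higher (1.77% of all genes), and with the replicate block nnt-1 (adjusted p = 0.0218) and sdz-24 (0.0203) were also called. Between days 7 and 11 in N2, hil-1 rose again (2.2-fold, log2 fold change 1.135 ± 0.25, adjusted p = 0.0146), 1 of 7 (1.09%), and upper-quartile scaling moved the share of called genes that were higher in that step from 35.6% to 51.9%. In daf-2 no member was called between days 4 and 7, where 0.335% of all genes were called. There 2 of the 7 had an unadjusted p under 0.05, dod-6 and dod-3, which ranked 129 and 463 by p-value among the 16698 genes. The largest daf-2 value in that step was dod-6 (1.79 ± 0.46, adjusted p = 0.0973, or 0.00631 with the replicate block and 0.0122 with DESeq2). Between days 7 and 11 in daf-2, hil-1 rose 2.61-fold (log2 fold change 1.38 ± 0.25, adjusted p = 0.00184) and sdz-24 fell 1.73-fold (-0.79 ± 0.22, adjusted p = 0.0315), 1 higher and 1 lower of 7 (4.6% and 2.09% of all genes). The hil-1 call in N2 ended without any single library of the 6 for days 4 to 7 (adjusted p = 0.0902 to 0.156), and without day 7 library 1 (0.0606) or day 11 library 2 (0.147) for days 7 to 11. The sdz-24 call in daf-2 ended without day 7 library 1 (0.103), 2 (0.0623) or 3 (0.0792), or day 11 library 1 (0.053) or 2 (0.231).

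Whether the change with age differed between the strains was tested as a strain-by-age term. No member was called at day 4, 7 or 11 against day 1, where 0%, 0.012% and 0.347% of all genes were called by edgeR's quasi-likelihood test, and DESeq2 also called none of the members. An unadjusted p under 0.05 was found for 1, 2 and 4 of the 7 at these ages, and the share of all genes under it was not counted. The highest of these p-values ranked 161 (sdz-24), 539 (dod-6) and 1097 (dod-6) among the 16698 genes. At day 11 the terms were -1.27 ± 0.43 for lea-1 (adjusted p = 0.313), -1.23 ± 0.45 for nnt-1 (0.374), 1.52 ± 0.69 for dod-6 (0.597) and 0.66 ± 0.25 for dao-3 (0.428), on the log2 scale and positive where daf-2 rose more. The remaining terms were -0.81 ± 0.69 for dod-3, -0.11 ± 0.32 for sdz-24 and -0.26 ± 0.35 for hil-1. With the replicate block lea-1 was called at day 7 (log2 -1.43, adjusted p = 0.0154) and day 11 (-1.26, adjusted p = 0.00765). By number, the N2 libraries of day 11 were taken as paired with day 1, and those of day 7 were not. Without N2 day 1 library 3 nnt-1 was called at day 11 (-1.83, adjusted p = 0.0377). In simulated counts for the day 11 term, 18 of 100 genes changed 2-fold and 84 of 100 changed 4-fold were recovered. The changed genes were drawn from those above 10 CPM on average and changed in 1 group, with no effect of the replicate number. These rates therefore do not cover dod-6, which stood at 0.503 to 4.21 CPM in N2.

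The replicate number went with the level of lea-1 and dod-6, and to a smaller extent with that of sdz-24. For sdz-24, 7 of the 8 libraries numbered 1 lay above their group mean (mean log2 deviation 0.16), and 1 of the 8 numbered 2 did (-0.15). Libraries numbered 3 lay below their group mean in all 8 groups for lea-1 (mean log2 deviation -0.41) and for dod-6 (-0.52), while for the other 5 members 3 to 6 of the 8 lay above it. Library 3 also had the highest share of ribosomal RNA of its group, except at day 7 in daf-2, where library 2 was at 9.62% and library 3 at 9.1%, and the part of that share in the levels was not tested. Without the 8 libraries numbered 3, an alternative chosen after seeing the data, the log2 fold change of lea-1 between the strains was 0.70 at day 7 (adjusted p = 0.0451) and 1.05 at day 11 (adjusted p = 0.00266), and the strain-by-age term of lea-1 at day 11 was -1.33 (adjusted p = 0.0246). For dod-6 the strain differences without them had log2 fold changes of 1.19, 1.85, 2.55 and 2.67 at the 4 ages (adjusted p = 0.218, 0.022, 0.00207 and 0.000779).

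**Figure D4:**
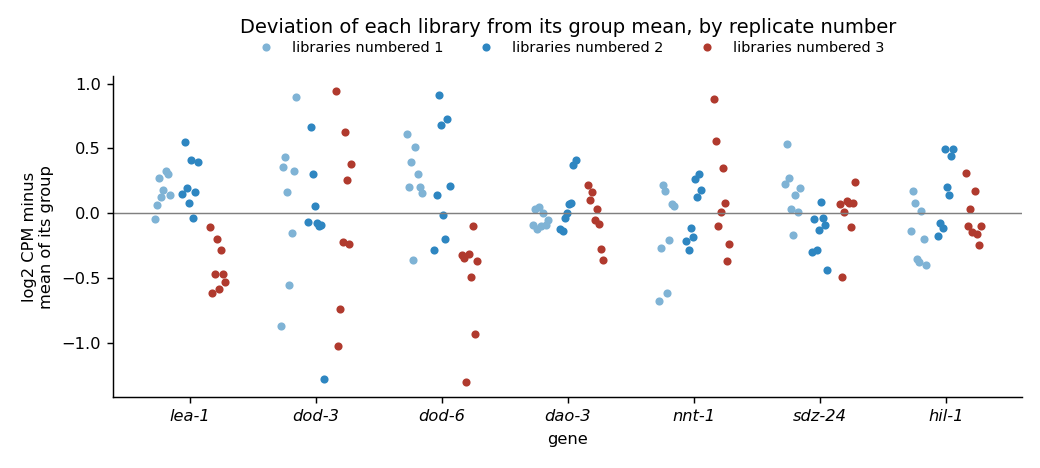
Log2 CPM of each library minus the mean of its group (vertical axis) for the 7 tested genes, coloured by replicate number, 8 libraries per number and gene. Libraries numbered 3 (red) lie below 0 in all 8 groups for lea-1 and dod-6, and on both sides of 0 for the other genes.

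Other genes of the pathway were read from lists, to set the members in place. Of 17 genes of the insulin to FOXO pathway, 0 were called between the strains at days 1 and 4. At day 7 the kinase gene akt-2 was higher in daf-2 (log2 fold change 0.77 ± 0.18, adjusted p = 0.0202), and at day 11 the kinase gene sgk-1 was lower (-1.24 ± 0.21, adjusted p = 0.000774). With age in N2, 5 of the 17 rose and 1 fell by day 11, beside 22.5% and 19.2% of all genes, a share near the background for those that rose. Among them was pqm-1, which encodes a transcription factor that acts at class II genes (1.49 ± 0.26, adjusted p = 0.000143). Of 15 other class I genes (14 symbols, of which hsp-16.1 matched 2 identifiers), 4, 4, 2 and 3 were higher in daf-2 at days 1, 4, 7 and 11 and 1, icl-1, was lower at day 11. Their median log2 fold changes at these ages, 1.08, 0.81, 0.38 and 0.51, stand beside 2.19, 1.96, 1.39 and 1.58 for the 7 tested members. Averaged over the 4 ages, 9 of the 15 were higher in daf-2 and 1 lower (6.91% and 4.2% of all genes). Their median log2 fold change in that average was 0.69, beside 1.83 for the 7 tested members. Of the 7 class II dod genes, 0 were higher and 3, 2, 2 and 2 lower in daf-2 at those ages, with dod-23 at -3.30 ± 0.33 (adjusted p = 1.66e-06) at day 11. The dod name thus covers genes that differed between the strains in opposite directions: dod-3 and dod-6 were higher in daf-2 where they passed, and dod-23 was lower at all 4 ages. Both lists were drawn up in earlier studies of daf-2 and daf-16 worms, and here with earlier results of these data known.

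Genes that share a role or a name with a member were counted in the same way. For comparison, by day 11 22.5% of all genes rose and 19.2% fell in N2, and 22.3% and 18% in daf-2. Between the strains 1.14%, 1.56%, 1.1% and 1.71% of all genes were higher in daf-2 at days 1, 4, 7 and 11. The lists are small, and counts near these shares do not set a list apart. Of 12 folate and methionine cycle genes beside dao-3, 0 were called between the strains at any single age, and by day 11 6 had fallen and 0 risen in N2 and 4 had fallen and 0 risen in daf-2. Among them sams-1, which makes S-adenosylmethionine, fell 6.03-fold in N2 (log2 fold change -2.59 ± 0.26, adjusted p = 2.2e-07) and 4.82-fold in daf-2 (-2.27 ± 0.26, adjusted p = 1.25e-06), while dao-3 rose in daf-2. Of 4 other genes of NADPH production beside nnt-1, 0 differed between the strains at any age and 2 fell with age in each strain, gspd-1, the glucose-6-phosphate dehydrogenase gene (-0.79 ± 0.12 in N2, adjusted p = 1.62e-05), and idh-1 (-0.57 ± 0.22, adjusted p = 0.0432). Of 8 other linker histone genes beside hil-1, 1 was higher in daf-2 at day 11 and 0 at the other ages. With age in N2, hil-3 (1.74 ± 0.61, adjusted p = 0.0266) and hil-2 (0.73 ± 0.27, adjusted p = 0.0378) rose. Of 9 genes of desiccation and dauer tolerance beside lea-1, 0, 2, 0 and 2 were higher in daf-2 at days 1, 4, 7 and 11 and 1 was lower at day 7. Averaged over the ages, 6 of the 9 were higher in daf-2 and 1 lower (6.91% and 4.2% of all genes). With age 3 of the 9 rose and 4 fell in N2 by day 11, and 3 rose and 3 fell in daf-2. The trehalose synthesis gene tps-1 rose by day 11 in N2 (1.095 ± 0.19, adjusted p = 0.000113) and in daf-2 (0.96 ± 0.19, adjusted p = 0.000472), and djr-1.1, a DJ-1-related gene, fell in N2 (-0.93 ± 0.13, adjusted p = 8.35e-06) and in daf-2 (-0.67 ± 0.13, adjusted p = 0.000347). Of 29 tested sdz genes beside sdz-24, 0 differed between the strains at any single age. Averaged over the ages 3 of the 29 were higher in daf-2 and 1 lower, near the shares of all genes (6.91% and 4.2%). In that average 1 folate and methionine cycle gene was higher and 0 lower, and 1 other linker histone gene was higher and 1 lower.

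Some markers of cell types moved with age as well. By day 11, 22.5% of all genes rose and 19.2% fell in N2, and 22.3% and 18% in daf-2. By day 11 in N2, 3 of 3 markers of body wall muscle (myo-3, unc-54 and unc-15), 2 of 3 of hypodermis and 3 of 4 of germline had fallen, and in daf-2 3 of 3, 2 of 3 and 2 of 4. Of 4 neuronal markers 1 rose in each strain, and of 2 pharyngeal markers none was called. Of 6 oocyte and eggshell markers 2 rose in N2 and 1 in daf-2, and of 6 sperm markers 2 rose and 1 fell in N2 and 2 rose in daf-2. In lists this small, the neuronal, oocyte and sperm counts are near the shares of all genes. In the step from day 7 to day 11 in daf-2, in which hil-1 rose, 4 of the 6 sperm markers rose and their summed level went from 1.87 to 3.17 CPM up to 20.8 to 46.2 CPM. In that step in N2 1 of 6 rose, from 3.29 to 5.4 CPM up to 8.12 to 26.1 CPM in sum. Intestine markers (ges-1, elt-2 and act-5) summed to 391.8 to 532 CPM in N2 at day 1 and 119 to 139 CPM at day 11, and in daf-2 to 480.0 to 642 CPM and 113 to 177 CPM. By the test 1 of these 3 fell in each strain, and between the strains 0, 1, 0 and 1 of them were higher in daf-2 at days 1, 4, 7 and 11. Averaged over the ages, 2 of the 3 intestine markers were higher in daf-2 and 1 lower, and of the 3 body wall muscle markers 1 was higher and 0 lower. In that average 6.91% of all genes were higher and 4.2% lower. The part of these markers in the levels of the members was not tested.

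The members resembled each other to unequal degrees over the 8 group means of log2 CPM, which share strain and age. All 21 pairs of the 7 tested members had a positive Pearson correlation, with a median of 0.81, from 0.42 for dod-3 with sdz-24 to 0.96 for dod-6 with dao-3. As the members were chosen as higher in daf-2, positive values were partly set in advance, and pairs of other genes were not measured. In deviations of the 24 libraries from their group means, pairs of members ran from -0.345 (dao-3 with sdz-24) to 0.657 (dao-3 with hil-1). Likeness to each member was measured over 7909 genes with a mean of at least 10 CPM, the member itself left out. Only genes that make a protein and bear a short name, such as fat-5, could be listed. Genes known by a sequence name alone and non-coding genes were passed over, so a closer gene may exist among the 7909. Within that limit, most like lea-1 were the fatty acid desaturase gene fat-5 (r = 0.966) and maph-1.1 (0.944). For dod-3 they were scb-1 (0.983) and the ferritin gene ftn-1 (0.983), and for dod-6 skr-12 (0.992) and fbxa-182 (0.9725). For dao-3 they were the pantothenate kinase gene pnk-1 (0.990) and the trehalase gene tre-4 (0.976). For nnt-1 they were the transthyretin-related genes ttr-5 (0.987) and ttr-23 (0.987). For sdz-24 they were asp-12 (0.969) and hmt-1 (0.953), and for hil-1 pals-26 (0.977) and cpi-1 (0.9725). The values over group means describe 8 points each, and none of these correlations carries a test.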

How the data were processed

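RNA sequencing libraries of whole worms (24, 3 per strain and age) were made with a stranded total RNA kit that depletes ribosomal RNA, per the labels' protocols. The authors deposited RSEM expected counts per gene for each library. STAR 2.7.0e and RSEM 1.3.1 are listed in the submitters' processing notes, as are 2 genome builds, ce11 and WBcel235, with no roles given, and the strand setting is not given in the sources used here. Symbols and coordinates were taken from the Ensembl annotation of WBcel235, which held 46817 of the 46904 identifiers.

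The expected counts were rounded to whole numbers, and the filterByExpr function of edgeR left 16698 genes, 7 of the 8 members among them. A model with a mean for each of the 8 groups was fitted with edgeR 4.0.16 in R 4.3.3, with TMM scaling and the quasi-likelihood test. P-values were adjusted by Benjamini-Hochberg over all genes tested, at a false discovery rate of 0.05. The SE is the log2 fold change divided by the square root of F. Alternatives used DESeq2 1.42.0, other scalings and filters, the groups compared alone, the replicate number as a block, and each library left out.

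In simulated counts for the strain comparison at day 11, 63 of 100 genes changed 2-fold and 98 of 100 changed 4-fold were recovered, with 4 unchanged genes called among 16272. No libraries of a group agreed within sampling noise (lowest median chi-square 2.87, against 0.455 from noise), so each counted as a replicate.

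The main fit ignored the replicate number, so its p-values are unpaired, and pairing entered only through the replicate block. Outside its own group, each of the 24 libraries correlated best with one of the same number. Libraries with the same number were taken as paired, for reading the block, where every number's deviations from the group means correlated above 0.1 across genes. This held for the 4 strain comparisons, for day 11 against day 1 in N2, for each later age against day 1 in daf-2, and for the steps from day 4 to 7 in both strains and day 7 to 11 in daf-2. The mark cannot show that libraries were paired by design. Deviations are from a mean of 3 libraries, so a shift shared by 1 number also gives the other numbers shared deviations.

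The members and lists were chosen with earlier results of these data known. All members are named. Of each other list, up to 3 of the most changed genes that passed with 10 CPM or more on average are named. Also named are the 2 genes most like each member among those that make a protein and bear a short name. A planned search of promoter letters was not run and no sequence was used here.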

Additional observations from a re-analysis of the deposited data

How the results depend on the processing

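All 7 tested members were higher in daf-2 on average over the ages in each of the fits tried, and all 420 alternative values of the strain differences at single ages were above 0. Of 1127 alternative log2 fold changes of members, 1065 kept their direction and their side of the threshold, 33 passed newly, 17 no longer passed and 12 reversed. With 1 library left out, 920 of 1008 kept both. The count of members called moved by more than 1.5 times as follows, and the cause was not tested. With DESeq2 it was 7 for the strain at day 11, 2 for N2 day 11 against day 7 and 1 for daf-2 day 7 against day 4. RLE scaling gave 1 for N2 day 7 against day 4, and upper-quartile scaling and library size alone each gave 1 for daf-2 day 11 against day 7. Without a filter it was 1 for daf-2 day 4 against day 1, N2 day 7 against day 4 and daf-2 day 11 against day 7. With the replicate block it was 7 for the strain at day 11, 1 for strain by age at days 7 and 11, 4 for N2 day 7 against day 4, 2 for N2 day 11 against day 7, where the numbers were not taken as paired, and 1 for daf-2 day 7 against day 4. With only the groups compared it was 3 for the strain at day 1, 1 for N2 day 4 against day 1, 0 for N2 day 11 against day 7 and 1 for daf-2 day 11 against day 7. Without the 8 libraries numbered 3 it was 1 for strain by age at days 7 and 11 and for daf-2 day 7 against day 4. Smaller moves were from 4 to 6 for the strain at day 7 with the block and without number 3, and to 5 with DESeq2 and 3 with only the groups compared. For the strain at day 11 they were from 4 to 6 without number 3 and to 5 with upper-quartile scaling, library size or only the groups compared. Moves by 1 member were found for the strain at day 4 and daf-2 day 7 against day 1 with only the groups compared, for the latter without a filter, for N2 day 7 against day 4 with DESeq2, for daf-2 day 4 against day 1 with the block, and for day 4 against day 1 in both strains without number 3. With 1 library left out the count ranged from 0 to 1 for N2 day 11 against day 7, daf-2 day 4 against day 1 and strain by age at day 11, from 0 to 2 for N2 day 4 against day 1, and from 1 to 2 for N2 day 7 against day 4 and daf-2 day 11 against day 7. Over all genes, the block raised the calls between the strains at days 1, 4, 7 and 11 from 293, 323, 350 and 659 to 663, 823, 877 and 1615, and those of the average from 1855 to 3697. DESeq2 gave 499, 535 and 1002 at days 4, 7 and 11, only the groups compared 75 at day 1 and 186 at day 7, and the libraries without number 3 1000 at day 11. For strain by age at day 11, 58 genes became 260.0 with the block, 165 with DESeq2, 140.0 without number 3 and 18 with only the groups compared. With 1 library left out it ranged from 19 to 99, and daf-2 day 7 against day 4 fell from 56 genes to as few as 6. For day 4 and day 7 against day 1 the block gave 3856 and 7146 genes in N2 in place of 1519 and 4327, and 3817 and 7528 in daf-2 in place of 1543 and 4641, and only the groups compared gave 828 and 2518, and 646 and 2601. Log2 values that reversed were daf-2 day 7 against day 1 for lea-1 (0.079 with upper-quartile scaling, 0.081 with library size, 0.015 with the block, 0.018 with only the groups compared), strain by age at day 4 for hil-1 (0.010, 0.005 and 0.002 with upper-quartile scaling, the block and only the groups compared) and dod-3 (-0.283 without number 3), N2 day 11 against day 7 for dao-3 (0.016 with upper-quartile scaling, 0.036 without number 3), and daf-2 day 11 against day 7 for nnt-1 (0.014 with upper-quartile scaling, 0.002 with library size). With 1 library left out, the ranges that crossed 0 were: for N2 day 11 against day 7, dao-3 -0.132 to 0.008, dod-6 -0.764 to 0.167, lea-1 -0.326 to 0.021. For daf-2 day 11 against day 1, lea-1 -0.147 to 0.314. For daf-2 day 11 against day 7, dod-3 -0.738 to 0.151, dod-6 -0.637 to 0.109, lea-1 -0.112 to 0.317, nnt-1 -0.291 to 0.031. For daf-2 day 4 against day 1, lea-1 -0.039 to 0.412. For daf-2 day 7 against day 1, lea-1 -0.242 to 0.209. For daf-2 day 7 against day 4, dao-3 -0.035 to 0.302. For strain by age, day 11 against day 1, hil-1 -0.549 to 0.029, sdz-24 -0.234 to 0.073. For strain by age, day 4 against day 1, dod-3 -0.165 to 0.864, hil-1 -0.185 to 0.093, nnt-1 -0.663 to 0.267. For strain by age, day 7 against day 1, sdz-24 -0.186 to 0.082. The lea-1 level in N2 at day 1 was 219.7 CPM with TMM scaling against 196.4 CPM. With 8 counts in all, low depth and absent expression cannot be told apart for scl-1.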
